A study of Mus musculus with 12 samples.

Results

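The tumour necrosis factor (TNF) superfamily was followed through 12 RNA sequencing libraries, made from fibroblasts cultured from mouse paws. Its members were taken by gene symbol: 15 ligand genes and 19 receptor genes, 34 of the 55413 genes in the table, with the genes of RANKL and osteoprotegerin left out. All 34 were found. Of these, 27 had a mean expression of at least 3 on the log2 scale over the 12 libraries and were tested, 9 ligands and 18 receptors.

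TNF superfamily ligands are trimeric proteins made on the cell surface, and several are shed by proteases. Their receptors fall into those with a death domain, such as the products of Tnfrsf1a and Fas, which can recruit caspases, and those that bind TRAF adaptors and lead to NF-kappaB and MAP kinase signalling. In the synovium, TNF is known for driving fibroblasts to make cytokines, chemokines and matrix-degrading enzymes, and fibroblasts carry many of the receptors while most of the ligands are best known from leukocytes.

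Paws of BALB/c mice, a laboratory inbred strain, were digested with collagenase and the cells grown in culture. The paws had been injected with monosodium urate (MSU) crystals, the crystals of gout. Each of the 4 groups held 3 libraries. Every library came from cells pooled over 2 to 3 paws, harvested on day 18 and carried through 5 passages in culture. Non-primed cells came from right paws given crystals on day 9 only, in mice injected with vehicle. Primed vehicle cells came from left paws given crystals on day 0 and again on day 9, so that side and priming cannot be told apart. In vivo treated cells came from primed left paws of mice given 20 mg/kg of I-BET151 daily, starting 1 day ahead of the first crystals. In vitro treated cells came from primed paws and were exposed to 1 µM of I-BET151 for 24 h, and the labels do not say what their donors had been injected with. I-BET151 blocks BET bromodomain proteins, readers of histone acetylation at active promoters and enhancers. Nothing in the labels says that libraries of a group came from separate cultures or animals, so p-values measure the spread between these libraries, which may be technical.

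The libraries did not all look like fibroblasts. In 5 of them, the libraries labelled non-primed 1, 2 and 3 and in vivo 2 and 3, the mean rlog value of 15 melanocyte markers was 12.60 to 13.97, against 5.61 to 6.69 in the other 7. These 5 are called pigment-rich below. The mean of 10 fibroblast markers was 6.54 to 10.77 in the pigment-rich libraries and 14.08 to 15.11 in the others, and that of 10 macrophage markers was 3.14 to 5.76 against 6.80 to 8.81. Markers of T and NK cells were near the floor, with means of -0.99 to -0.09, and none of the 9 was tested. The library labelled non-primed 3 went against its label: over all tested genes it lay closest to in vivo 2 (Pearson r = 0.983 across genes), and Hexim1, a gene known to rise under BET inhibitors, stood at 14.26 there, against 12.19 and 12.25 in non-primed 1 and 2 and 13.90 to 14.23 in the in vivo libraries.

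A few sequences are shown first, for members that moved differently. The promoter of Tnf, the founding ligand, is the 250 bases before its start at chr17:35202008-35202257 (GRCm38, minus strand), and capitals mark a TATAAA match 29 bases upstream. For Tnfsf15, which had the largest difference of any ligand in each comparison with the primed vehicle libraries, the 196 RefSeq upstream bases before the annotated exon are shown, chr4:63745114-63745309 (minus strand). Ltbr, which stood at the same level in vehicle and in vitro treated cells, has chr6:125313886-125314135 (minus strand). Tnfrsf9, the costimulatory receptor, was lower in every treated library than in any primed vehicle library. For this gene 30 bases of an internal RefSeq promoter are shown, chr4:150927946-150927975 (plus strand), with 2 overlapping matches to an NF-kappaB motif in capitals. The GENCODE annotation places these bases in an exon.
Tnf: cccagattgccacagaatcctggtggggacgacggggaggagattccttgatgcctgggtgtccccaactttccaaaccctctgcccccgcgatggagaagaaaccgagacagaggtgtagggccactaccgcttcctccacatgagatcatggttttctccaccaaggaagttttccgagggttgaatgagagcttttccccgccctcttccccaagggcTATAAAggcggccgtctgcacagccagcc
Tnfsf15: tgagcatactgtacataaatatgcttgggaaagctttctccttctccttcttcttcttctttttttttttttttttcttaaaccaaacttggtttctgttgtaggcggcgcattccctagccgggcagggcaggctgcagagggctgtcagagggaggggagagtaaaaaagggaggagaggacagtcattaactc
Ltbr: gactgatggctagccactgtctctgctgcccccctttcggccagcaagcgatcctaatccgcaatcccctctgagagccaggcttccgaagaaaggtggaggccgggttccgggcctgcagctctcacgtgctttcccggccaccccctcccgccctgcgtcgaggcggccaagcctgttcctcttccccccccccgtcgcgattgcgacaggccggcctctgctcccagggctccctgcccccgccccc
Tnfrsf9: cagagcagctGGGGATTTCCCaggaggccc

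RefSeq promoters (GRCm38.p6) were found for 26 of the 34 members, 30 promoters in all, and 3 motifs were looked for on both strands in the 250 bases upstream. The NF-kappaB motif (GGG-NN-TT-N-CC, read without the hyphens) was present for 3 members, Ltb, Tnfrsf9 and Tnfrsf25, and in 4.11% of the 32851 promoters in the table. The AP-1 motif TGANTCA was present for 5 members, Tnfsf13, Tnfsf13b, Tnfsf14, Tnfrsf9 and Fas, and in 6.75% of all promoters. A TATAAA match was present for 5 members, Tnf, Lta, Tnfsf18, Tnfrsf23 and Eda2r, and in 12.37% of all. It began 29 bases upstream in Tnf, 34 in Tnfsf18, 58 in Eda2r, 167 in Lta and, on the other strand, 158 in Tnfrsf23. In Tnfrsf9 the AP-1 match began 15 bases upstream of the same start as the printed site. The other RefSeq promoter of Tnfrsf9 and the Tnfsf15 and Ltbr windows held none of the 3 motifs.

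Several members are neighbours in the genome (GRCm38, GENCODE M21). Tnf (chr17:35199381-35202007) lies 1.2 kb from Lta and 3.1 kb from Ltb, the lymphotoxin genes. Tnfrsf26, Tnfrsf22 and Tnfrsf23, mouse receptors related to the TRAIL receptors, form a cluster on chromosome 7 with gaps of 6.1 and 16.1 kb. Tnfrsf22 shares 17.3% of its 50-base exon windows with Tnfrsf23, so that their values are uncertain, and neither shares any with Tnfrsf26. Tnfsf12 and Tnfsf13 lie 0.5 kb apart on chromosome 11, under a read-through gene and an antisense gene, so their values are uncertain as well. Tnfsf9 and Tnfrsf9 are each overlapped by a gene on the opposite strand, Gm11110 and Camta1.

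The 8 most abundant members in primed vehicle cells were receptors. Per kilobase of exon, on the log2 scale, the highest level was that of Tnfrsf12a, the receptor for TWEAK, at 13.26 ± 0.21 (SD, n = 3). Then came Tnfrsf23, a decoy receptor for TRAIL, at 12.17 ± 0.58, Tnfrsf1a, the main TNF receptor of most cells, at 12.15 ± 0.10, and Ngfr, the low-affinity neurotrophin receptor, at 12.08 ± 1.38. Tnfrsf1b, the other TNF receptor, at 11.92 ± 0.31, and Ltbr, the lymphotoxin beta receptor, at 11.92 ± 0.14, completed a group of 5 after Tnfrsf12a whose means were closer together than the SD of Ngfr. The highest ligand was Tnfsf9 at 9.69 ± 0.61, in place 9 of the 34, and Tnf took place 16 at 7.76 ± 1.10.

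**Figure D1:**
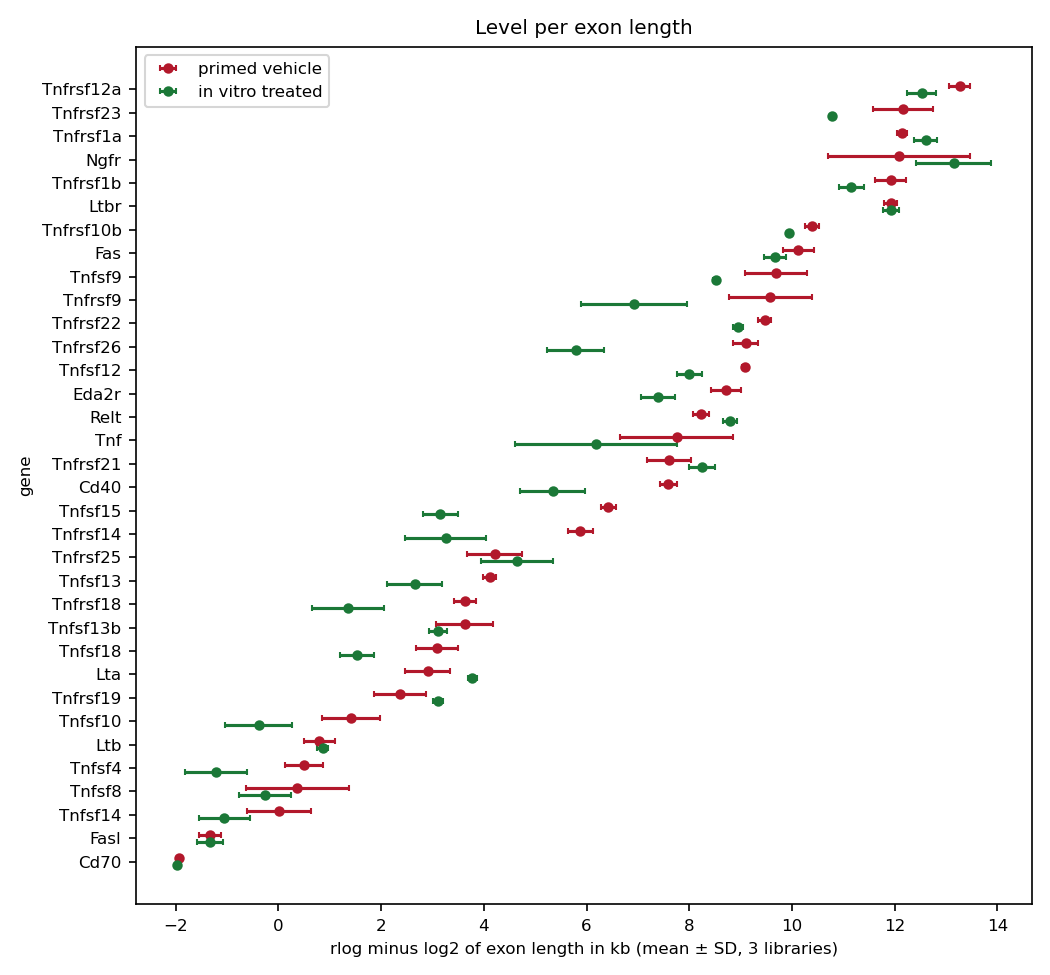
Expression per kilobase of exon (rlog value minus log2 of the exon length in kb) of the 34 TNF superfamily genes in primed vehicle and in vitro treated libraries, as mean ± SD of 3 libraries. Tnfrsf12a is highest in vehicle cells at 13.26, and Tnfsf9 at 9.69 is the highest ligand.

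The other 7 members were not tested because of their low mean. Cd70 stayed at -2.23 to -2.15 in all libraries and Fasl, the ligand of Fas, at -0.54 to 0.36. Tnfsf4 was at or below -0.61 in every non-primed and in vivo library and at 1.06 to 1.79 in the primed vehicle libraries. Tnfsf14, the ligand LIGHT, was at 0.19 to 1.36 in primed vehicle cells and at or below -0.63 in non-primed and in vivo cells. Tnfsf8 ranged from -0.01 to 3.45, Ltb from 0.94 to 2.55 and Tnfrsf18, a costimulatory receptor, from 1.35 to 4.98.

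**Figure D2:**
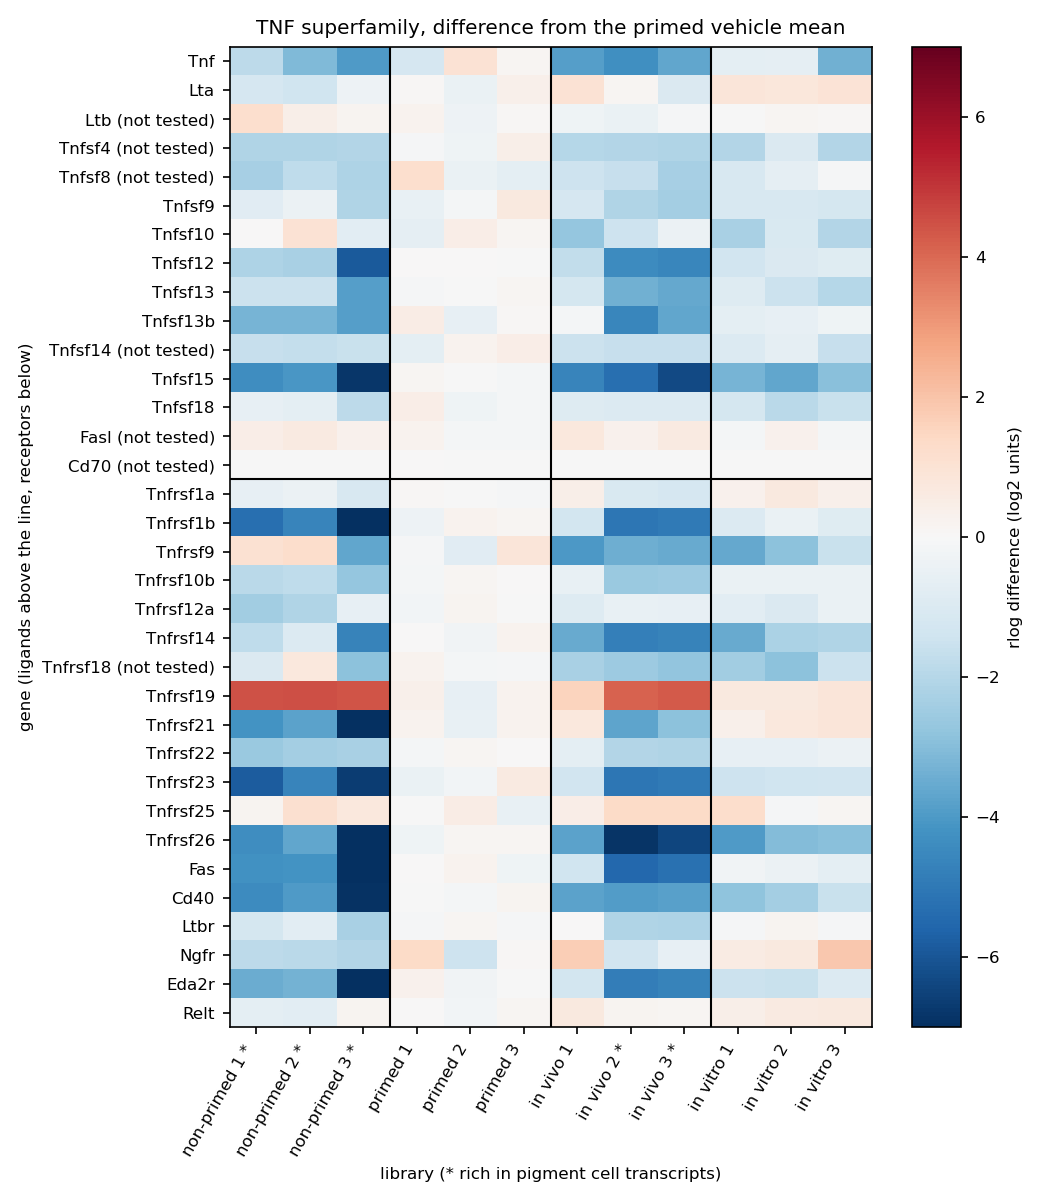
Each cell is the rlog value of 1 member in 1 library minus its mean in the 3 primed vehicle libraries (log2 units, red higher, blue lower), with ligands above the line, receptors below it, and stars for pigment-rich libraries; values beyond the colour scale take its end colours. Most members are below the vehicle mean in the pigment-rich libraries, while Tnfrsf19 is above it there.

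Primed cells were compared with non-primed cells to ask what a previous crystal exposure left behind in culture. Of the 27 tested members, 18 were higher in primed cells, 5 ligands and 13 receptors, and 1 receptor, Tnfrsf19, was lower. Over all genes 48.9% were called at an adjusted p below 0.05, 27.7% higher and 21.2% lower. The groups did not overlap for 20 members higher and 1 lower in primed cells, against 61.7% of all genes, 33.7% higher and 28% lower. The median difference was 2.29 over the members and 0.05 over all genes tested. All 3 non-primed libraries were pigment-rich and no primed vehicle library was, so that priming and the share of pigment cells cannot be told apart. In these bulk samples, fewer cells of a type and less RNA per cell cannot be told apart either.

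Among the ligands, Tnfsf15, the endothelial and myeloid cytokine known as TL1A, differed most. It stood at 3.84, 4.11 and 1.37 in non-primed libraries 1, 2 and 3 and at 8.32, 8.12 and 8.04 in the primed vehicle libraries. The groups lay far apart, and the difference was 5.06 ± 0.74 (SE, n = 3 per group; adjusted p = 0.00214, limma). Tnf was at 6.66, 5.37 and 4.49 in non-primed and at 7.30, 9.49 and 8.63 in primed cells. The lowest primed library exceeded the highest non-primed one by a small margin only, and Tnf rose by 2.97 ± 0.75 (adjusted p = 0.0176). Tnfsf13b, the B cell survival factor BAFF, rose by 3.45 ± 0.40 (adjusted p = 0.000948). Tnfsf12, which encodes TWEAK, and its neighbour Tnfsf13, which encodes APRIL, rose by 3.44 ± 0.99 and 2.29 ± 0.65. Lta, Tnfsf9, Tnfsf10 and Tnfsf18 did not pass the test, with differences between -0.11 for Tnfsf10 and 1.08 for Tnfsf9.

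Of the receptors of TNF, Tnfrsf1b, which binds TRAF2 and lacks a death domain, differed most of all members. Its values were 8.59, 9.24 and 4.45 in non-primed cells and 13.51, 14.08 and 13.98 in primed cells, and it rose by 6.43 ± 1.19 (adjusted p = 0.00527). Tnfrsf1a, its partner with a death domain, was at 12.98, 13.10 and 12.38 and at 13.63, 13.52 and 13.43. These groups did not overlap, but the rise was small, 0.70 ± 0.20 (adjusted p = 0.0269). The library labelled non-primed 3 was the lowest for both genes.

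Death receptors rose as well, and so did Eda2r. Fas, the receptor of Fas ligand, stood at 6.92, 6.98 and 3.89 in non-primed and at 11.21, 11.44 and 10.86 in primed cells, a rise of 5.24 ± 0.84 (adjusted p = 0.00303). Tnfrsf21, a death receptor best known from neurons and T cells, rose by 4.99 ± 0.89. Eda2r, a receptor of an ectodysplasin form and a target of p53, rose by 4.58 ± 0.97, and Tnfrsf10b, the mouse TRAIL receptor, by 2.14 ± 0.26. Ngfr rose by 1.93 ± 0.64 (adjusted p = 0.044), with a wide spread from 12.44 to 15.20 among the primed libraries. Tnfrsf25, the receptor of TL1A, did not pass (-0.68 ± 0.42).

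The receptor cluster on chromosome 7 was higher in primed cells throughout. Tnfrsf23 was at 8.31, 9.53 and 7.51 in non-primed and at 13.69, 13.97 and 14.80 in primed cells, a rise of 5.70 ± 0.54 (adjusted p = 0.000542). Tnfrsf26 was at 6.44, 7.17 and 2.60 and at 10.51, 10.91 and 10.94, a rise of 5.38 ± 1.14 (adjusted p = 0.00875). Tnfrsf22 differed less, by 2.42 ± 0.16, but its error was the smallest of the 27 (adjusted p = 0.000275).

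Cd40, the costimulatory receptor that answers CD40 ligand on T cells, was at 4.95, 5.42 and 2.43 in non-primed and at 9.32, 9.21 and 9.55 in primed cells. No library of one group came near the other, and Cd40 rose by 5.10 ± 0.78 (adjusted p = 0.00257). Tnfrsf12a, which is induced by growth factors and injury, was at 11.79, 12.09 and 13.62 and at 14.01, 14.42 and 14.21, a rise of 1.72 ± 0.46 (adjusted p = 0.022). Ltbr rose by 1.41 ± 0.37. Tnfrsf14 (2.49 ± 0.94, adjusted p = 0.0668), Relt (0.41 ± 0.29) and Tnfrsf9 did not pass. For Tnfrsf9 the libraries labelled non-primed 1 and 2 were the highest of all 12, at 12.09 and 12.26, while the library labelled non-primed 3 was at 7.39, close to the in vivo libraries at 7.02 to 7.59.

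Tnfrsf19, a receptor of the neural crest and skin lineages also known as TROY, went the other way. It was chosen for description after its values had been seen. It stood at 9.05, 9.14 and 9.03 in non-primed and at 4.97, 4.03 and 4.84 in primed cells, and it fell by 4.46 ± 0.35 (adjusted p = 0.000362). It was also the 1 tested member that was higher in every pigment-rich library (8.75 to 9.14) than in every other library (4.03 to 6.15). Lower in every pigment-rich library than in any other were 12 of the 27 tested members: Tnfsf12, Tnfsf13b, Tnfrsf1a, Tnfrsf1b, Tnfrsf10b, Tnfrsf21, Tnfrsf22, Tnfrsf23, Fas, Cd40, Ltbr and Eda2r. Over all genes tested, 24.3% were lower and 19.6% higher in this sense. Cd40 was among the 12 by a small margin only, with 5.59 in the highest pigment-rich library and 5.61 in the lowest of the others. The cell type markers differed between primed and non-primed cells as well. All 8 macrophage markers that were tested were called higher in primed cells, as were all 10 fibroblast markers and 2 of 4 endothelial markers. Of the 15 melanocyte markers 14 were lower and 1 higher, and of 5 Schwann cell markers 2 were lower. The mean of the 5 endothelial markers listed was 3.00 to 4.29 in the pigment-rich libraries and 5.29 to 6.15 in the others. The part of these cell types in the differences of the members was not tested.

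Without the library labelled non-primed 3, 20 members were higher and 1 lower in primed cells, against 55.6% of all genes called. Lta, Tnfrsf14 and Relt passed the test in that fit, Ngfr no longer did (1.87 ± 0.71, adjusted p = 0.0621), and Tnfrsf9 was at -1.15 ± 0.43 (adjusted p = 0.0597). Tnf was then at 2.46 ± 0.69 and Tnfrsf1b at 4.94 ± 0.25, both still called. Without primed vehicle library 3, 12 members were called, against 37.1% of all genes.

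**Figure D3:**
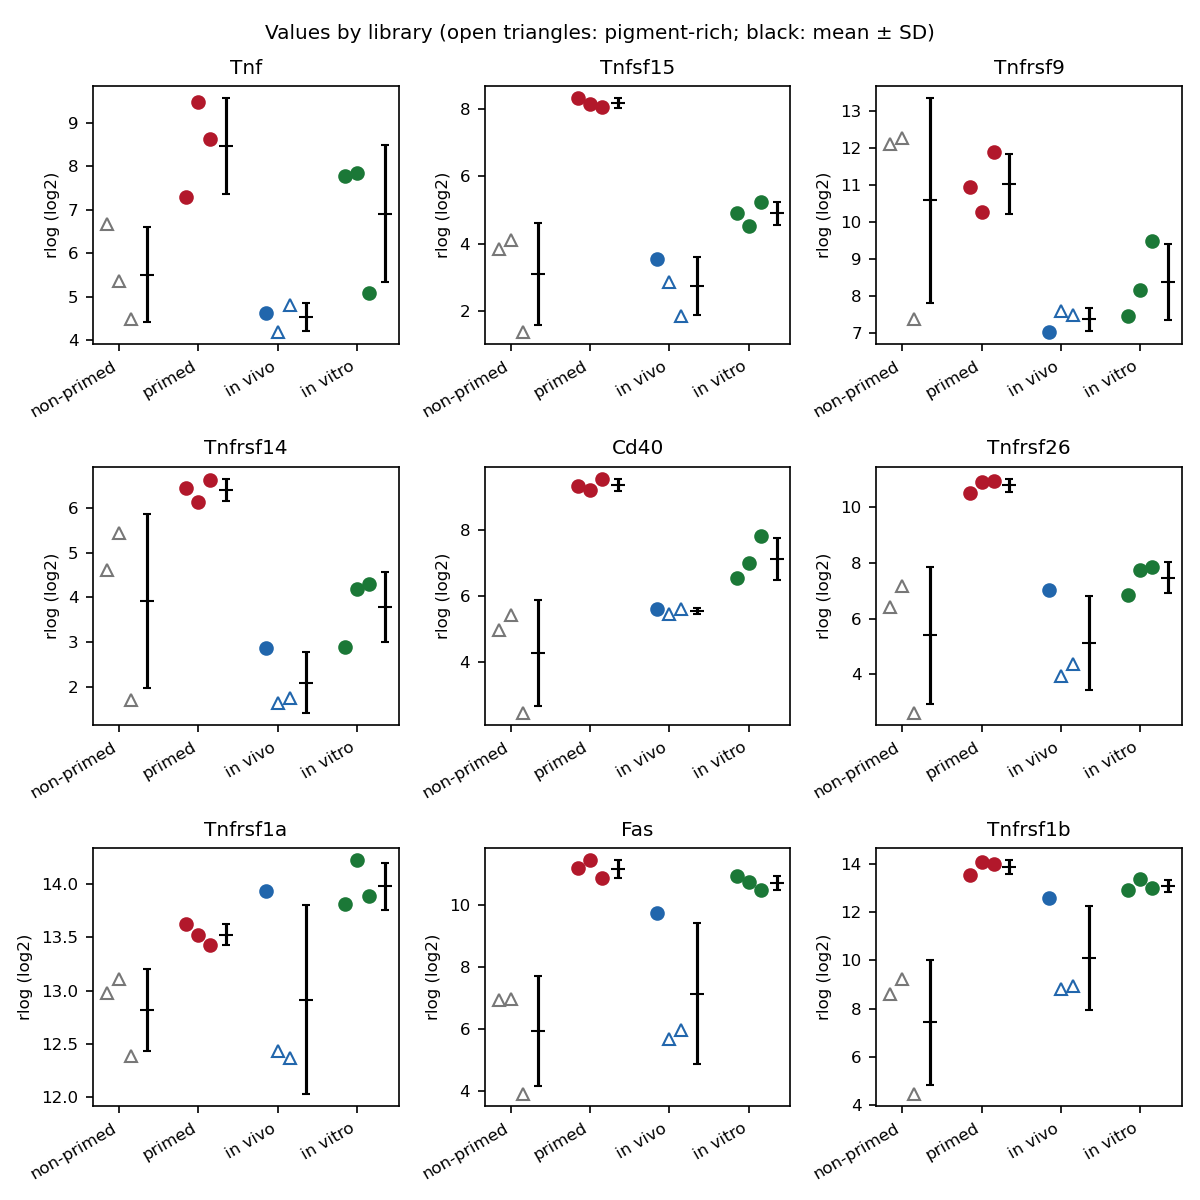
Values of 9 members in each library (rlog, log2 scale, axes not starting at 0), with open triangles for pigment-rich libraries and black marks for mean ± SD of 3 libraries. Cd40, Tnfsf15, Tnfrsf14 and Tnfrsf26 are lower in all treated libraries than in any primed vehicle library, while Tnfrsf1a, Fas and Tnfrsf1b split the in vivo group by pigment content.

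Cells of mice treated with I-BET151 were compared with the primed vehicle cells to ask what treatment during priming changed. Of the 27 tested members, 13 were lower, 5 ligands and 8 receptors, and 1, Tnfrsf19, was higher. Over all genes 24% were called, 10.2% higher and 13.8% lower. The groups did not overlap for 17 members lower and 2 higher, against 49.1% of all genes, 22.7% higher and 26.4% lower. The median difference was -1.93 over the members and -0.05 over all genes. The group was not uniform: in vivo libraries 2 and 3 were pigment-rich and in vivo library 1 was not, and library 1 lay nearest to in vitro library 1 (Pearson r = 0.992 across genes). The primed vehicle libraries are the same 3 in all comparisons with them, so these comparisons are not independent.

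Tnf was low in all 3 in vivo libraries, at 4.62, 4.18 and 4.81, and fell by 3.94 ± 0.60 against vehicle (adjusted p = 0.0131). Tnfsf15 was at 3.56, 2.87 and 1.85 and fell by 5.40 ± 0.48 (adjusted p = 0.00473). Both ligands were below every primed vehicle library in the pigment-rich pair and in library 1, the only pigment-poor library of the group. Tnfsf12 fell by 3.57 ± 0.79, Tnfsf13 by 2.71 ± 0.67 and Tnfsf9, whose product binds the Tnfrsf9 receptor, fell by 1.88 ± 0.44. All 3 were higher in library 1 than in the pigment-rich pair. Tnfsf12 was at 7.94, 5.26 and 5.13, Tnfsf13 at 3.61, 1.48 and 1.25 and Tnfsf9 at 8.87, 7.96 and 7.70. Tnfsf13b did not pass (-2.78 ± 1.17, adjusted p = 0.122): it was at 6.26 in library 1 and at 1.85 and 2.77 in the pigment-rich pair.

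Cd40, Tnfrsf9 and Tnfrsf14 were low in every in vivo library. Cd40 was at 5.61, 5.44 and 5.59, a spread far smaller than its fall of 3.82 ± 0.24 (adjusted p = 0.00348). Tnfrsf9 was at 7.02, 7.59 and 7.50 and fell by 3.65 ± 0.44 (adjusted p = 0.00817). Tnfrsf14, the receptor of LIGHT, was at 2.88, 1.65 and 1.74 and fell by 4.32 ± 0.42 (adjusted p = 0.00526). For these 3 genes, unlike Tnfsf13b, library 1 stood with the other in vivo libraries and not with vehicle.

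Tnfrsf26 was at 7.04, 3.95 and 4.38 and fell most of all members, by 5.66 ± 0.84 (adjusted p = 0.0121). Tnfrsf22 fell by 1.61 ± 0.41, and Tnfrsf23 missed the threshold (-3.78 ± 1.06, adjusted p = 0.0505) with 12.82 in library 1 and 9.09 and 9.20 in the others. Tnfrsf12a was at 13.34, 13.71 and 13.62 and fell by 0.66 ± 0.16 (adjusted p = 0.0393). Here library 1 was the lowest of the 3, by a small margin.

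The TNF receptors and Fas did split. Fas was at 9.76 in library 1 and at 5.69 and 5.96 in libraries 2 and 3, and fell by 4.03 ± 1.11 (adjusted p = 0.0487). Tnfrsf1b was at 12.60, 8.81 and 8.92, and missed the threshold (-3.75 ± 1.05, adjusted p = 0.0503). Tnfrsf1a was at 13.94, 12.44 and 12.37, so that library 1 was above and libraries 2 and 3 were below every primed vehicle library, and it did not pass (-0.61 ± 0.44, adjusted p = 0.304). Eda2r fell by 3.60 ± 0.98. Tnfrsf19 rose by 3.32 ± 0.81, with 6.15 in library 1 and 8.75 and 8.89 in the pigment-rich pair.

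Counts in this comparison depended on single libraries. Against the vehicle cells, in vivo library 1 alone, fitted together with the vehicle and in vitro libraries so that it was assumed to vary like them, had 14 members lower and 2 higher, where 20.4% of all genes were called. In that comparison between pigment-poor libraries Tnfsf15 was at -4.61 ± 0.36, Tnfrsf9 at -4.00 ± 0.83, Cd40 at -3.75 ± 0.46, Tnfrsf26 at -3.74 ± 0.41, Tnfrsf14 at -3.53 ± 0.59 and Fas at -1.41 ± 0.25, all called. Tnf was at -3.85 ± 1.21 and was not called (adjusted p = 0.0649), and Tnfrsf1a was at 0.41 ± 0.18 (adjusted p = 0.145). Without in vivo library 1, 21 members were lower and 2 higher, against 67.4% of all genes. Leaving out any other library gave 4 to 6 called members: 6, 4 and 4 without primed vehicle library 1, 2 and 3, and 5 and 4 without in vivo library 2 and 3. The share of all genes called in these 5 fits was 6.08%, 2.99%, 3.57%, 3.21% and 2.79%, in the same order. Macrophage markers fell too, 6 of the 8 tested, with 1 of 4 endothelial and 2 of 10 fibroblast markers, and their part in the result was not tested.

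In vitro treated cells were compared with primed vehicle cells to ask what 24 h of I-BET151 did to cells already primed, and no pigment-rich library stood on either side. Of the 27 tested members, 16 were lower, 6 ligands and 10 receptors, and 2 receptors, Tnfrsf1a and Relt, were higher. Over all genes 30.3% were called, 13.4% higher and 16.9% lower. The groups did not overlap for 16 members lower and 5 higher, against 48.4% of all genes, 22.7% higher and 25.7% lower. The median difference was -0.77 over the members and -0.02 over all genes tested. Of the macrophage markers 1 of 8, Cd14, was called, and of the fibroblast markers 1 of 10, both lower. Of the melanocyte markers 2 of 15 were lower, of the endothelial markers 1 of 4 was lower and of the Schwann cell markers 1 of 5 was higher, and the part of these shifts was not tested.

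Tnfsf15 was at 4.92, 4.54 and 5.23 and fell by 3.27 ± 0.25 (adjusted p = 0.00183), the largest fall of a ligand. Tnfsf10, which encodes TRAIL, was at 1.52, 2.75 and 1.76 against 3.21, 4.30 and 3.92 in vehicle cells, and fell by 1.80 ± 0.44 (adjusted p = 0.0222). Its values lie where the rlog transformation shrinks differences. Tnfsf18, the ligand of the receptor encoded by Tnfrsf18, fell by 1.55 ± 0.32, Tnfsf13 by 1.46 ± 0.33, Tnfsf9 by 1.17 ± 0.29 and Tnfsf12 by 1.08 ± 0.16.

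Tnf itself did not pass in vitro. It was at 7.78, 7.84 and 5.08, so that libraries 1 and 2 lay within the vehicle range of 7.30 to 9.49 and library 3 lay below it, and the difference was -1.57 ± 0.86 (95% interval -3.60 to 0.46, adjusted p = 0.207). The mean of the macrophage markers was 7.59, 8.53 and 7.36 in these libraries, and its part in the spread of Tnf was not tested. Tnfsf13b (-0.51 ± 0.32) and Lta (0.87 ± 0.30, adjusted p = 0.0655) did not pass either.

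Tnfrsf26 had the largest fall of any member, 3.31 ± 0.29 (adjusted p = 0.00204), with values of 6.84, 7.74 and 7.85. Tnfrsf9 was at 7.47, 8.16 and 9.49 and fell by 2.65 ± 0.58 (adjusted p = 0.0163). Tnfrsf14 was at 2.88, 4.18 and 4.29 and fell by 2.62 ± 0.42 (adjusted p = 0.00573). Cd40 was at 6.53, 6.99 and 7.80 and fell by 2.26 ± 0.32 (adjusted p = 0.00447). In none of these 4 did a treated library reach the vehicle range.

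The remaining changes of receptors were smaller. Tnfrsf23 was at 12.72, 12.75 and 12.80, far closer together than in vehicle cells, and fell by 1.39 ± 0.26 (adjusted p = 0.00998). Eda2r fell by 1.33 ± 0.21, Tnfrsf22 by 0.52 ± 0.10 and Tnfrsf10b by 0.44 ± 0.09. Tnfrsf1b, at 12.90, 13.37 and 13.00, fell by 0.77 ± 0.18 (adjusted p = 0.0217). Tnfrsf12a, at 13.48, 13.20 and 13.76, fell by 0.74 ± 0.17 (adjusted p = 0.0184). Tnfrsf1a went the other way, at 13.82, 14.23 and 13.89, and rose by 0.45 ± 0.13 (adjusted p = 0.0359). Relt, a receptor that activates NF-kappaB, rose by 0.56 ± 0.13.

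Fas was at 10.93, 10.74 and 10.49, overlapped the vehicle range and did not pass (-0.45 ± 0.18, adjusted p = 0.0979). Ltbr differed by 0.01 ± 0.11, with a 95% interval of -0.26 to 0.27. Tnfrsf21 (0.64 ± 0.24), Tnfrsf19 (0.74 ± 0.31) and Ngfr (1.07 ± 0.69) did not pass. Counts here depended on the fit and on in vitro library 2: when all 12 libraries shared an estimate of the spread, 2 members were called, both lower, against 4.51% of all genes, and without in vitro library 2, 9 members were called, against 15.3% of all genes.

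**Figure D4:**
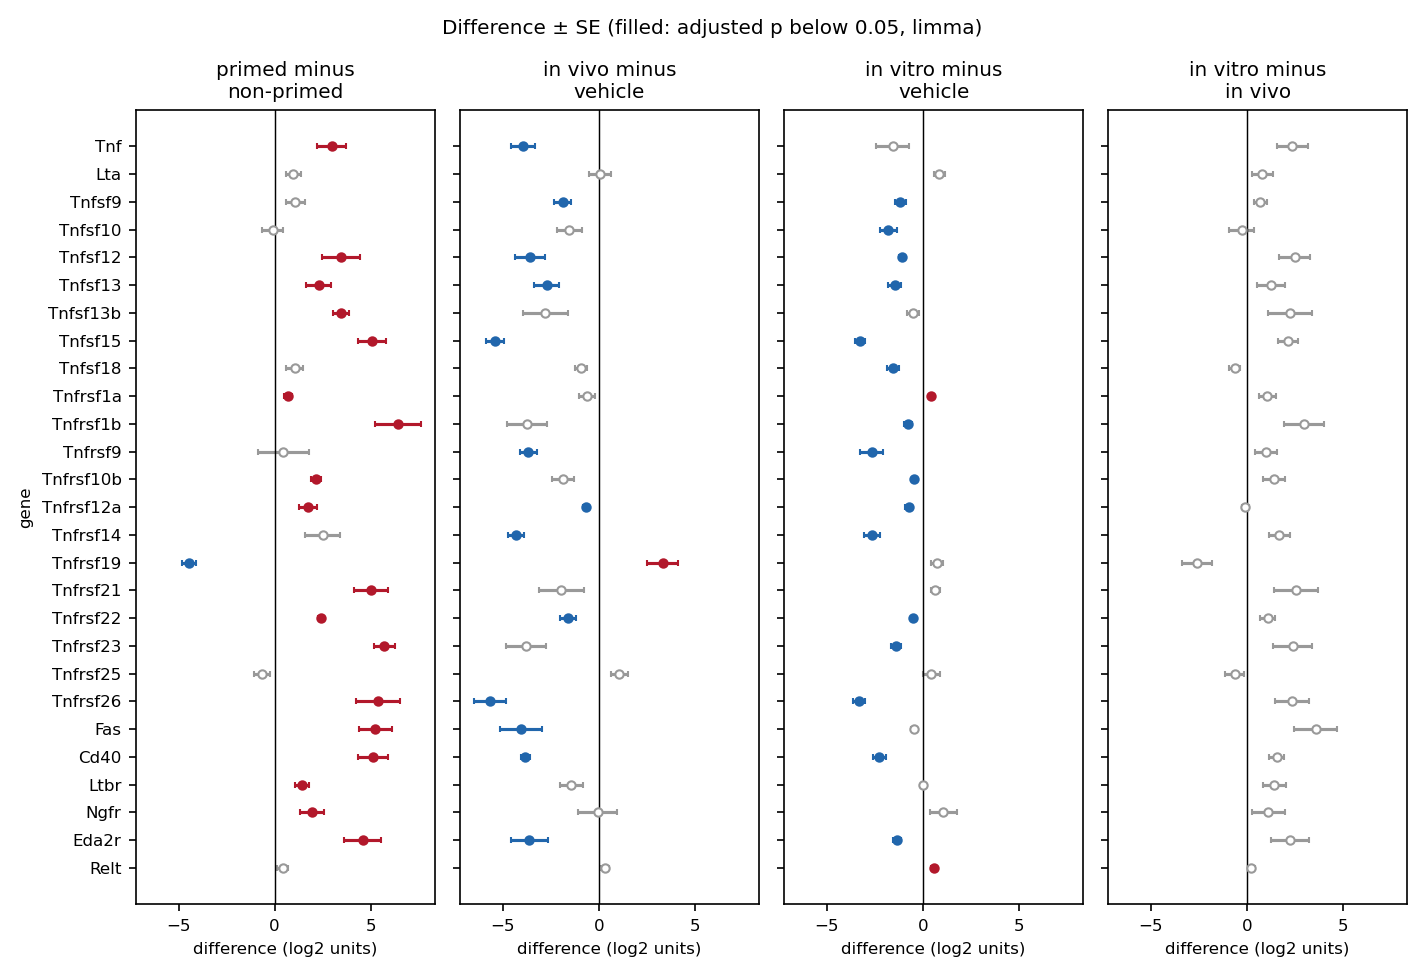
Difference ± SE (log2 units) of the 27 tested members in each comparison, with filled points for an adjusted p below 0.05 (limma, 3 libraries per group). Tnfsf15, Tnfrsf26 and Cd40 have filled points in the first 3 panels, and no point is filled in the last.

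In vitro and in vivo treated cells were compared directly, since both received the inhibitor but at different times and doses. No member was called, and 0% of all genes were (limma, smallest adjusted p = 0.232). At an unadjusted p below 0.05 there were 11 members and 3153 of the 16459 genes. The values of 11 members did not overlap between the groups, 9 higher and 2 lower in vitro, against 22.4% of all genes, 11.6% higher and 10.8% lower. Fas (3.58 ± 1.11) and Tnfrsf1b (2.98 ± 1.05) had the largest differences. Without in vivo library 1, 21 members were higher and 1 lower in vitro, against 64.4% of all genes, and with in vivo library 1 as the only in vivo library none was called. For Tnf, the in vivo libraries at 4.18 to 4.81 were all below the in vitro libraries at 5.08 to 7.84, with a difference of 2.37 ± 0.81 (adjusted p = 0.232).

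The genes that carry signals from these receptors were taken as a list of 35: 14 adaptors and kinases, 10 ubiquitin and feedback genes, 8 genes of the death arm and 3 of ligand shedding. All 35 were tested. In primed against non-primed cells 9 were higher and 4 lower, where 27.7% and 21.2% of all genes were. In vivo treated cells had 9 lower and 2 higher, where 13.8% and 10.2% of all genes were, and in vitro treated cells 14 lower and 3 higher, where 16.9% and 13.4% were. The median difference of the list was 0.18, -0.32 and -0.18 in these 3 comparisons. The direct comparison of the treatments called none of the list. At an unadjusted p below 0.05 there were 9 of the 35, and 3153 of all 16459 genes (limma). After centring each library on its median, in vivo treatment gave 9 lower and 6 higher, where 11.8% and 15.7% of all genes were. In vitro treatment then gave 10 lower and 6 higher, where 13.9% and 18.9% of all genes were.

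Traf1, an adaptor that NF-kappaB induces, was at 6.89, 8.53 and 8.37 in the primed vehicle group, 2.45, 1.77 and 3.12 in the in vivo group and 4.38, 4.68 and 4.69 in the in vitro group. Traf1 was 4.20 ± 0.69 higher in primed than in non-primed cells, and lower than vehicle by 5.49 ± 0.59 in vivo and by 3.35 ± 0.45 in vitro. Here too, priming and the share of pigment cells cannot be told apart. Birc3, a ubiquitin ligase that protects from TNF-induced death, was 3.88 ± 0.68 higher in primed than in non-primed cells. It fell by 4.04 ± 0.73 in vivo and by 1.68 ± 0.26 in vitro. Tnfaip3, which encodes the feedback inhibitor known as A20, rose by 3.45 ± 0.47 and fell by 3.62 ± 0.67 and by 1.53 ± 0.37, in the same order. The in vivo group was split for both genes. Birc3 was at 8.85 in library 1 and at 6.37 and 6.57 in the pigment-rich pair, and Tnfaip3 at 10.20, 8.02 and 8.19. Traf1, Birc3 and Tnfaip3 are well-known targets of NF-kappaB, but they were named for the size of their differences, and its part was not tested. Their values in treated libraries were all below those in primed vehicle libraries, as were those of 26.4% of all genes in vivo and 25.7% in vitro.

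The necroptosis genes differed from each other. Ripk3, a kinase of necroptosis, was at 12.64, 12.96 and 13.15 in primed vehicle cells and at 6.88, 7.98 and 3.55 in non-primed cells, and rose by 6.78 ± 1.07, the largest difference of the list (adjusted p = 0.00282). Of the in vivo libraries, the first was at 12.26 and the pigment-rich pair at 6.93 and 7.01. Mlkl, the executioner that Ripk3 activates, showed no such split: it was at 9.08, 10.01 and 9.96 after in vivo and at 9.06, 9.59 and 10.36 after in vitro treatment, against 12.03, 12.10 and 12.71 in vehicle cells. Mlkl fell by 2.60 ± 0.32 in vivo and by 2.61 ± 0.34 in vitro (adjusted p = 0.00868 and 0.00357).

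**Figure D5:**
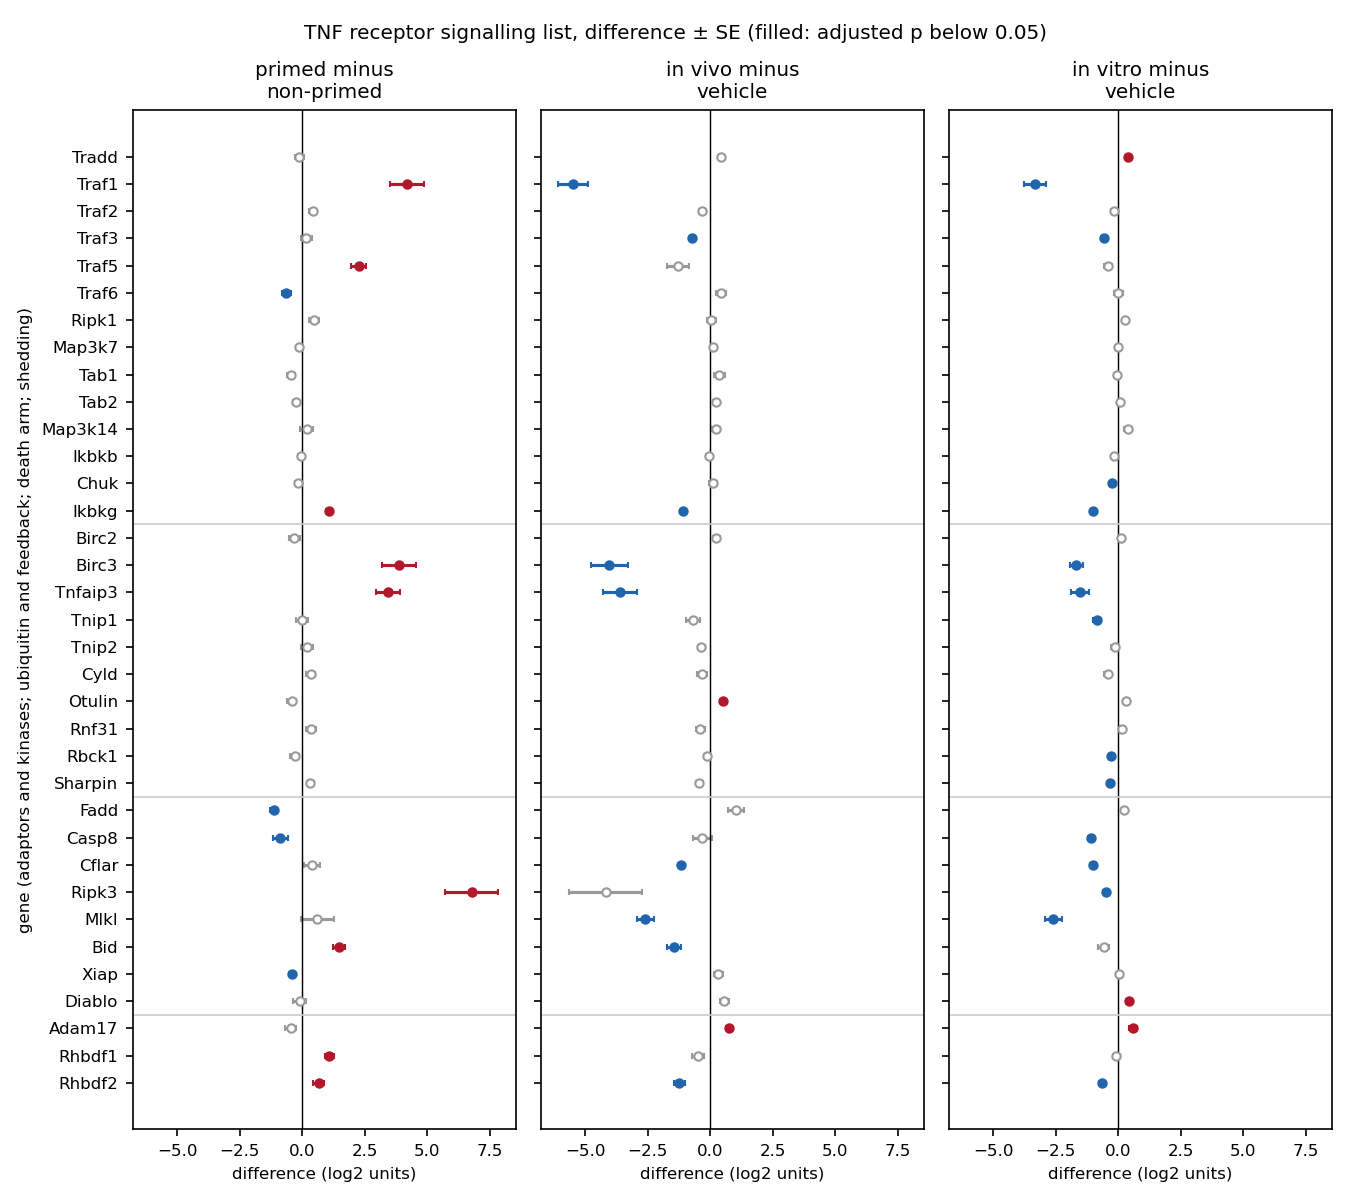
Difference ± SE (log2 units) of the 35 signalling genes in 3 comparisons, with filled points for an adjusted p below 0.05 (limma, 3 libraries per group) and grey lines between adaptors and kinases, ubiquitin and feedback genes, the death arm and shedding. Traf1, Birc3 and Tnfaip3 have filled points to the right in primed against non-primed cells and to the left in both treated groups against vehicle.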

How the data were processed

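RNA was sequenced from stranded mRNA libraries, per the labels' protocols. The submitters' processing notes list cutadapt (1.18), STAR (2.6.1c), Subread (1.6.1) with featureCounts, DESeq2 (1.24.0) and the build GRCm38. The annotation release and strand setting were not given in the labels used here. The authors deposited log2 values (regularized log, rlog) for 55413 genes. Rlog shrinks differences of weakly expressed genes and keeps no counts, so the depth is unknown.

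Genes with a mean of at least 3 over 12 libraries were tested (16459). For each comparison, limma 3.58.1 (R 4.3.3; lmFit, eBayes with a variance trend) was fitted to its 6 libraries, with two-sided p-values adjusted over all tested genes (Benjamini-Hochberg) and called below 0.05. The procedure was tested on simulated data. Per-kilobase levels subtract log2 of the GENCODE M21 exon length. Members, gene lists, marker lists and alternatives were chosen with earlier results of these data known. Described with every library's value were Tnf, Tnfrsf1a, Tnfrsf1b, Fas, Cd40, Tnfrsf12a and the 6 called members with the largest difference per comparison. In the signalling list the 4 largest called genes per comparison were named. Pigment-rich means a melanocyte marker mean of at least 10. Alternatives were the filter, the trend, robust moderation, centring, quantile normalization, array weights, all 12 libraries, a replicate block and each library left out. In vivo library 1 alone was added after seeing the data.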

Additional observations from a re-analysis of the deposited data

How the results depend on the processing

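The differences of the 27 tested members in 4 comparisons and of the named signalling genes, 120 in all, gave 1827 values under the alternatives, of which 1795 kept their direction and 1519 also their side of the threshold. No difference that changed sign was called in either fit. In primed against non-primed these were Lta under quantile normalization (-0.0010), Tnfrsf9 under array weights (-1.02) and, with each library left out, Tnfrsf9 (-1.15 to 1.29) and Tnfsf10 (-0.53 to 0.35). In vivo against vehicle they were Ngfr after centring (0.12), Lta under array weights (-0.52) and, with each library left out, Lta (-0.43 to 0.59) and Ngfr (-0.94 to 0.61). With in vivo library 1 alone, Tnfrsf1a was at 0.41, Tnfrsf21 at 0.74, Ltbr at 0.011 and Ngfr at 1.70. In vitro against vehicle, Ltbr ran from -0.079 to 0.086 with each library left out. In vitro against in vivo, Tnfrsf12a ran from -0.22 to 0.063 and Tnfsf10 from -0.87 to 0.29 with each library left out. With in vivo library 1 alone, this comparison gave Tnfrsf12a at 0.14, Tnfsf10 at 0.91, Lta at -0.16, Tnfsf13 at -0.25, Tnfsf13b at -0.37, Tnfrsf21 at -0.099, Tnfrsf23 at -0.065, Ltbr at -0.0025, Ngfr at -0.63, Eda2r at -0.049 and Relt at -0.10. The number of called members was 12 to 21 with each library left out in primed against non-primed, 4 to 23 in vivo against vehicle, 9 to 18 in vitro against vehicle and 0 to 22 in vitro against in vivo. For signalling genes these ranges were 9 to 15, 4 to 26, 9 to 12 and 0 to 18, and for all genes 6107 to 9156, 459 to 11092, 2520 to 4612 and 0 to 10604. Array weights, which weigh down libraries far from their group, called 12299 genes, 23 members and 28 signalling genes in vivo against vehicle, and 12112, 24 and 22 in vitro against in vivo. A spread shared by all 12 libraries gave 6531 genes in vivo against vehicle, and 743 genes, 2 members and 3 signalling genes in vitro against vehicle. With no filter on low values, 3993 genes and 11 signalling genes were called in vitro against vehicle. The causes of these shifts were not tested.

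Deviations of same-numbered libraries from their group means had correlations of -0.27 to 0.16. Each mean is of 3 libraries, and non-primed 3 and in vivo 1 stand apart in theirs. These correlations therefore cannot show whether the numbers pair libraries. With the replicate block, 322 genes, 3 members and 2 signalling genes were called in vivo against vehicle, and 3765 genes and 10 signalling genes in vitro against vehicle. In primed cells 1 signalling gene in place of 4 was lower, where 17% of all genes in place of 21.2% were. In vitro against vehicle 1 member in place of 2 was higher, where 10% of all genes in place of 13.4% were. The other total counts stayed within 1.5 times. Centring and quantile normalization moved the median of all genes from 0.05 to -0.08 and -0.24 in primed against non-primed, and from -0.05 to 0.13 and 0.19 in vivo against vehicle. Called genes then split into 4074 higher and 4029 lower, or 3839 and 5287, in place of 4562 and 3489, and in vivo against vehicle into 2580 and 1936, or 2833 and 1932, in place of 1675 and 2275. In vitro against vehicle the split was 3116 and 2281, or 3064 and 2300, in place of 2207 and 2776. No called member or signalling gene changed sign in these fits. Depth limits cannot be given, and members with rlog values under about 3 have understated differences.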
